A study of Mus musculus with 2 samples.

Results

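The regions described here are 453 distal DNase I hypersensitive sites (DHSs) that were crowded with footprints in the mouse cerebral cortex. A DHS is a stretch of DNA that DNase I cuts readily and that the authors called as a peak. A footprint is a short stretch inside accessible DNA where cutting was called as reduced. Peaks of both libraries that shared at least 1 bp were merged, which gave 182437 merged regions, of which 78165 held a peak of each library. Of these shared DHSs, 52908 had a midpoint over 1 kb from every transcription start site (TSS) in GENCODE M21. The 453 crowded DHSs overlapped 6 or more footprints in each library and made up 0.856% of the 52908. They were set beside the other 52455 shared distal DHSs, and beside the 6912 of these that were at least as wide as the lower width quartile of the crowded DHSs (320 bp), called equally wide DHSs hereafter. The crowded DHSs were chosen by their measured footprint counts, with peaks in both libraries and TSS distance, so values of these kinds are descriptions. Outside the gene lists, a DHS said to be near a gene had its nearest protein-coding TSS at that gene, at any distance. That TSS can be far: it lay 193196 bp away for the DHS near Rnf219.

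DNase-seq releases and sequences the fragments that DNase I frees from nuclei. All samples were tissue of the left cerebral cortex. The mice were 14 days old, female and of the strain B6CASTF1/J, a first-generation hybrid of C57BL/6J and CAST/EiJ, with no treatment named. The 2 libraries came from animals with separate numbers under 1 donor record and are named replicate 1 and replicate 2. There was 1 group and no condition to compare, so no p-value was computed, and values after ± are the SD over n = 2 libraries. The sequence under each DHS is that of the C57BL/6J reference, and the CAST/EiJ alleles were not analysed here.

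Replicate 1 had 90059 peaks and 199455 footprints, and replicate 2 had 175597 peaks and 416840 footprints. The deposited signal of a peak carries no stated unit and the sequencing depth is unknown. Promoters of 6 of 6 cortical neuron markers, 3 of 3 oligodendrocyte lineage markers, 2 of 3 astrocyte markers, 1 of 2 microglia markers, 0 of 2 endothelial markers and 0 of 3 liver markers carried a peak in both libraries. The astrocyte marker without one in replicate 1 was Aqp4. In bulk tissue, a DHS that is open in few cells and one that is weakly open in many cannot be told apart.

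Distal DHSs include enhancers, insulators and promoters that an annotation lacks. Sequence-specific factors bind such elements in place of a nucleosome, and the bases under a bound protein are shielded from DNase I. A wide element with several bound proteins can therefore carry a row of footprints. DNase I also cuts some base contexts less readily than others, and this can mimic a footprint. RNA polymerase III genes, such as those of tRNAs, carry their promoter inside the gene: TFIIIC holds the A box and the B box, and TFIIIB sits just upstream of the start.

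Sequences of 6 places are shown because the results below turn on them. In the first pair, capitals mark bases that lay in footprints of both libraries, and each is the 300-base window with the most such bases in its DHS. The Maml3 window (chr3:52102013-52102312, mm10, plus strand) comes from the DHS with the most footprints, in an intron of the gene for a coactivator of Notch signalling. The Peg3 window (chr7:6728606-6728905, mm10, plus strand) comes from an intron of a paternally expressed zinc finger gene.
Maml3: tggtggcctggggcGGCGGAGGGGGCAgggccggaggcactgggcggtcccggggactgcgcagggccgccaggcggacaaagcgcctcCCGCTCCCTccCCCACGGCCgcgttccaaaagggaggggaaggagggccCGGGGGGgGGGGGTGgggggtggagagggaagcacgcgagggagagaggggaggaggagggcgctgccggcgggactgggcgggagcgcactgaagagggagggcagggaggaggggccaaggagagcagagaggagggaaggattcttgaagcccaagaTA
Peg3: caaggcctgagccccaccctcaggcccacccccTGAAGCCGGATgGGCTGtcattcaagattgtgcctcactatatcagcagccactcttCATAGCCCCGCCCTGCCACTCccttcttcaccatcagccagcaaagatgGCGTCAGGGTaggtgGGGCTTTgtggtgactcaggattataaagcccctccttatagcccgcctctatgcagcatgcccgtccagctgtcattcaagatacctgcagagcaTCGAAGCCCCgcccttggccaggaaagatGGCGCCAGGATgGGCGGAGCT
In the Maml3 window 47 of 300 bases lay in footprints of both libraries, and in the Peg3 window 84 of 300 did.

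The next sequence holds a tRNA gene, RefSeq's tRNA-Asp gene near Dhx37, because tRNA genes recur among the crowded DHSs. The stretch shown (chr5:125405567-125405758, mm10, minus strand) has the 72 bp of the gene in capitals (chr5:125405607-125405678).
tRNA-Asp: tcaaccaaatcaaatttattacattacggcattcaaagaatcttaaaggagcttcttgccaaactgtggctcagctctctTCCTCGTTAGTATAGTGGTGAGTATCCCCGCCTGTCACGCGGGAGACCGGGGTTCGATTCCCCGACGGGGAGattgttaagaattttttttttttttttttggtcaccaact
With the first base of the gene counted as 0, 1 footprint of replicate 1 ran from -40 to 2 and another from 38 to 72. In replicate 2, footprints ran from -31 to -13, from -11 to -1, from 33 to 40 and from 42 to 72.

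The last 3 windows hold a motif match, in capitals, that lay inside a footprint of both libraries. They come from the highest-signal crowded DHS with such a match, and their motifs were among those most often found inside footprints. They are near Olfr750 (chr14:51064937-51064996, minus strand), Kcnn1 (chr8:70865724-70865783, plus strand) and C87436 (chr6:86472426-86472485, plus strand), all on mm10.
CTCF: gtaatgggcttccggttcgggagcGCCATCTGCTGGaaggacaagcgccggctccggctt
NRF1: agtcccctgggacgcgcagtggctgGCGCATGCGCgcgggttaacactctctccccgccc
SP/KLF: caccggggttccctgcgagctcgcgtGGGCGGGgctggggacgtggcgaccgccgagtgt
CTCF is the insulator protein, NRF1 a regulator of housekeeping and mitochondrial genes, and SP and KLF factors bind the GC box.

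Crowded DHSs held a median of 6 footprints in replicate 1 (range 6 to 23) and 7 in replicate 2 (range 6 to 21). Of the 453, 112 had exactly 6 in each library, and 16 had 10 or more in each. Replicate 2 had more footprints in 212 of them and replicate 1 in 76, and the numbers were equal in 165. A further 3019 shared distal DHSs reached 6 in replicate 2 only and 507 in replicate 1 only. Across the 453 the Spearman correlation of both counts was 0.427, given as a description of DHSs read in the same libraries. Just inside the limit, the 283 DHSs whose lower count was 6 had a median width of 380 bp, a GC content of 54.8% and median peak signals of 1.37 (replicate 1) and 1.69 (replicate 2). Just outside it, the 899 whose lower count was 5 had a median width of 280 bp, a GC content of 52.5% and signals of 1.41 and 1.56.

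**Figure D1:**
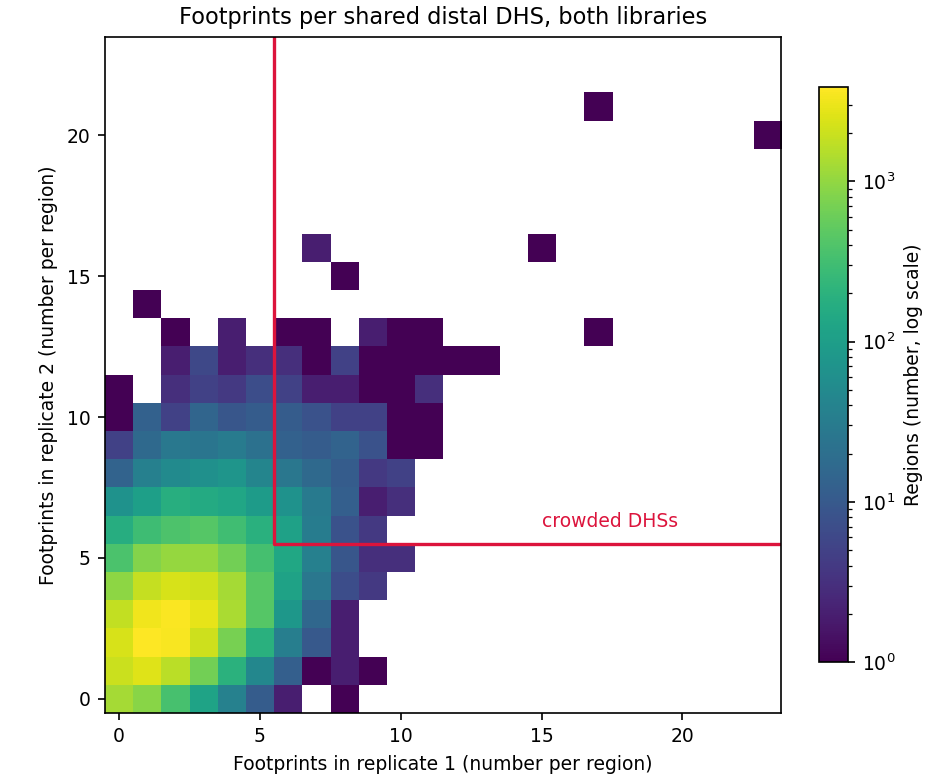
Heat map of the number of footprints per shared distal DHS in replicate 1 (x axis) and replicate 2 (y axis), coloured by the number of DHSs; the red lines bound the crowded DHSs. The 453 crowded DHSs form the upper right corner, and the 3019 that reached 6 in replicate 2 only outnumber the 507 that did so in replicate 1 only.

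Crowded DHSs were wider and higher in signal than the others. Their median width was 400 bp (quartiles 320 and 520), against 220 bp for the other shared distal DHSs, and 13 were wider than 1000 bp. A DHS can join several peaks, and its footprints were counted over all of them. More than 1 peak was held by 23.4% of crowded DHSs in replicate 1 and 18.8% in replicate 2. The other DHSs had 1.31% and 1.30%, and the equally wide ones 9.72% and 9.74%. The median signal of crowded DHSs was 1.46 (replicate 1) and 1.74 (replicate 2). The other DHSs had 0.655 and 0.737, and the equally wide ones 0.593 and 0.722. Of DHSs under 200 bp wide 0 of 9785 were crowded, which allows a share of up to 0.0392% (upper limit of the 95% Wilson interval), and of those 500 bp or wider 12.3% were. By mean signal, 0 of 5291 DHSs in the lowest decile and 219 (4.14%) in the highest were crowded. Per 100 bp, crowded DHSs held a median of 1.67 footprints (replicate 1) and 1.88 (replicate 2). The others held 0.769 and 1.18, and the equally wide ones 0.526 and 1. Among the 453, width and the mean number of footprints had a Spearman correlation of 0.536, and width and signal one of -0.521.

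The crowded DHSs with the most footprints were long and mostly CpG-rich, and most joined several peaks. The Maml3 DHS held 5 peaks of replicate 1 and 4 of replicate 2. Of the 12 with the most footprints, only the Peg3 DHS held 1 peak of each library. The Maml3 DHS (chr3:52101981-52103560) had 23 footprints in replicate 1 and 20 in replicate 2, with signals of 1.29 and 1.19. A DHS over an exon of Pcdh10, a protocadherin gene (chr3:45379288-45381320), had 17 and 21. The DHS in an intron of Arid5b, a chromatin regulator gene (chr10:68276401-68277400), had 17 and 13. The intronic Clec11a DHS (chr7:44304821-44305600), also 5042 bp from a TSS of the postsynaptic scaffold gene Shank1, had 15 and 16. It had the highest mean signal of the 12 DHSs with the most footprints, 4.76 in replicate 1 and 3.91 in replicate 2, although the Peg3 DHS was higher in replicate 2. The others of these 12 were the Peg3 DHS and DHSs near Calcoco1, the cadherin gene Fat3, Fgf11, Ppara, the glial transcription factor gene Sox8, Asxl3 and the glycosyltransferase gene Galnt9. They held 7 to 13 footprints in replicate 1 and 12 to 16 in replicate 2. Of the 12, 8 were CpG-rich (GC over 50% and an observed over expected CpG ratio above 0.6), 8 lay in introns, and their widths ran from 600 to 2033 bp. Most were close to a gene start: 9 of the 12 lay within 2500 bp of a RefSeq start, and the Ppara, Sox8 and Galnt9 DHSs lay farther away. The Fgf11, Asxl3 and Fat3 DHSs had a GENCODE TSS 1007, 1102 and 1176 bp away, just beyond the 1 kb limit. The Calcoco1 DHS lay 218 bp and the Fat3 DHS 200 bp from a RefSeq start that the GENCODE set lacks.

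**Figure D2:**
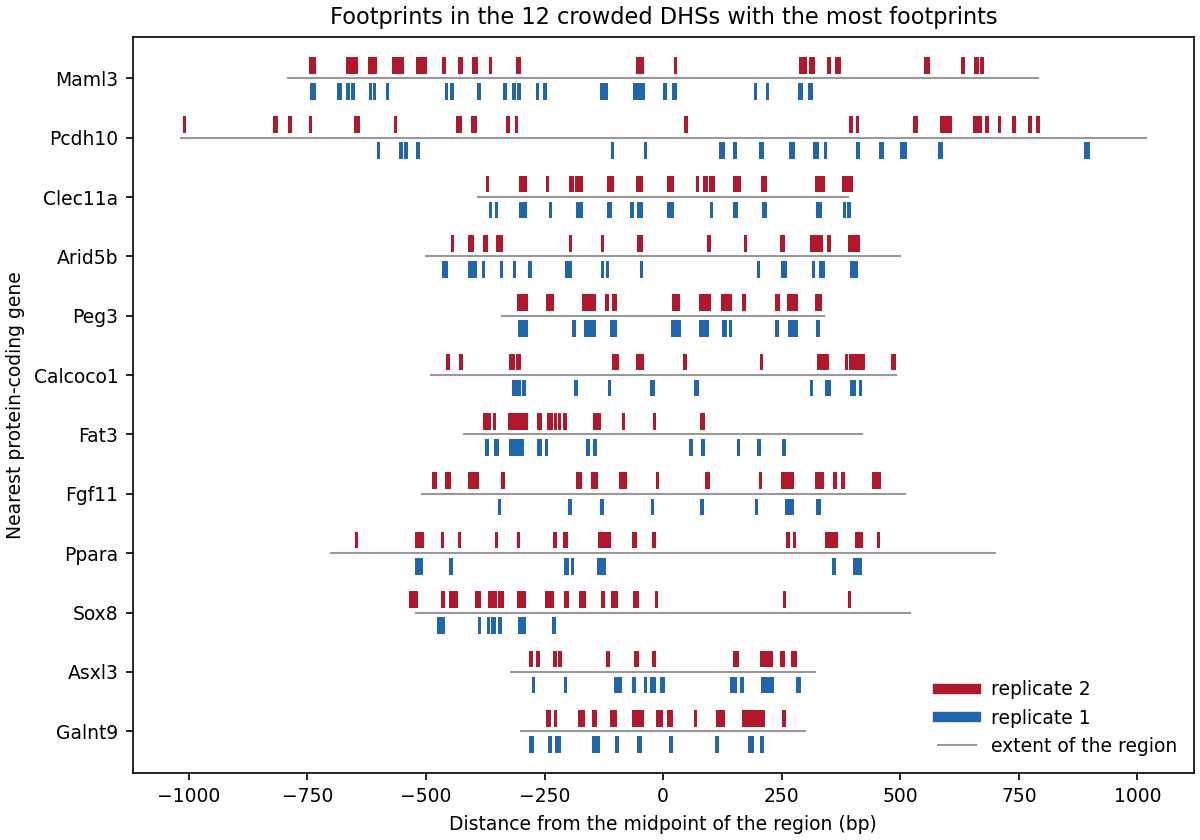
Footprints along the 12 crowded DHSs with the most footprints, replicate 2 (red) above and replicate 1 (blue) below in each row, by distance in bp from the midpoint of the DHS. In most rows footprints lie on both sides of the midpoint, and the Clec11a DHS shows 14 places where both libraries have one while the wider Pcdh10 DHS shows 2.

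Footprints of crowded DHSs overlapped those of the other animal more often than in other DHSs, in each library. The rule did not use where footprints were, but it asked for footprints of both libraries in every crowded DHS. Among the other DHSs, 10410 lacked footprints of at least 1 library. A footprint there had none of the other library in its DHS to overlap. The higher sharing therefore follows in part from the rule, and the size of this part was not tested. Of the 3166 footprints of replicate 1 in crowded DHSs, 68.3% overlapped 1 of replicate 2, and of the 3497 of replicate 2, 57.7% overlapped 1 of replicate 1, a mean of 63.0% ± 7.50. In the other DHSs the mean was 51.3% ± 16.6, from 63.1% and 39.6%. The difference was larger for replicate 2, and the means differ by less than the SD between libraries of the other DHSs. In the equally wide DHSs the shares were 45.4% and 23.9%. With 50% of both footprints required to overlap, the mean in crowded DHSs was 39.7%. Replicate 2 footprints covered 23.8% of the bases of crowded DHSs, against 16.4% in the others. The part of this higher coverage in the sharing was not tested.

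Counting places where both libraries had a footprint, crowded DHSs had a median of 5 (quartiles 4 and 6), against 1 in the others. A count of 6 or more such places was reached by 172 crowded DHSs (38.0%), against 162 of 52455 others (0.309%). These counts follow in part from the rule, which asks for 6 footprints in each library. CpG-rich crowded DHSs had a median of 6 such places and CpG-poor ones 4, and 3 CpG-poor ones had none. Across the 453, the number of shared places had a Spearman correlation of 0.622 with signal, and the mean number of footprints one of -0.00972. The Clec11a DHS had 14 shared places for 15 and 16 footprints, and the Pcdh10 DHS, with signals of 0.763 and 0.672, had 2 for 17 and 21.

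The median width of a footprint in crowded DHSs was 9 bp in replicate 1 and 11 bp in replicate 2, against 10 bp in both libraries in the other DHSs. Neighbouring footprints were 44 bp apart in replicate 1 and 46 bp in replicate 2 (medians from centre to centre), against 51.25 and 50.5 bp in the others. In crowded DHSs, 18.2% of bases lay in footprints of replicate 1, against 10.3% in the others. The segments in which the authors gave a false discovery rate of the local cut rate ran unbroken for a median of 619 bp in replicate 1 and 815 bp in replicate 2 around crowded DHSs, against 222 and 322 bp around the others. The footprints were derived from the same cut-rate values, so this is not an independent readout.

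Crowded DHSs were rich in G, C and CpG. Their median GC content was 55.6%, against 49.5% in the others and 50% in the equally wide ones. CpG sites, whose methylation depletes them in most of the genome and which persist in CpG islands, stood at a median observed over expected ratio of 0.477, against 0.254 in the others. By both thresholds, 167 of 453 crowded DHSs were CpG-rich (36.9%, 95% Wilson interval 32.6 to 41.4, counting error only), against 4.13% of the others and 6.08% of the equally wide ones. Read the other way, 7.16% of CpG-rich shared distal DHSs were crowded, against 0.565% of CpG-poor ones. With width held at 320 bp or more, these shares were 22.4% and 3.26%. The share of CpG-rich DHSs was 27.6% where the lower footprint count was 6 and 78.9% among the 19 DHSs where it was 9. Lower counts of 10, 11 and 12 gave 60%, 100% and 50%, from 5, 5 and 2 DHSs. Repeats made up a median of 6.19% of the sequence of crowded DHSs, against 6.60% in the others.

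**Figure D3:**
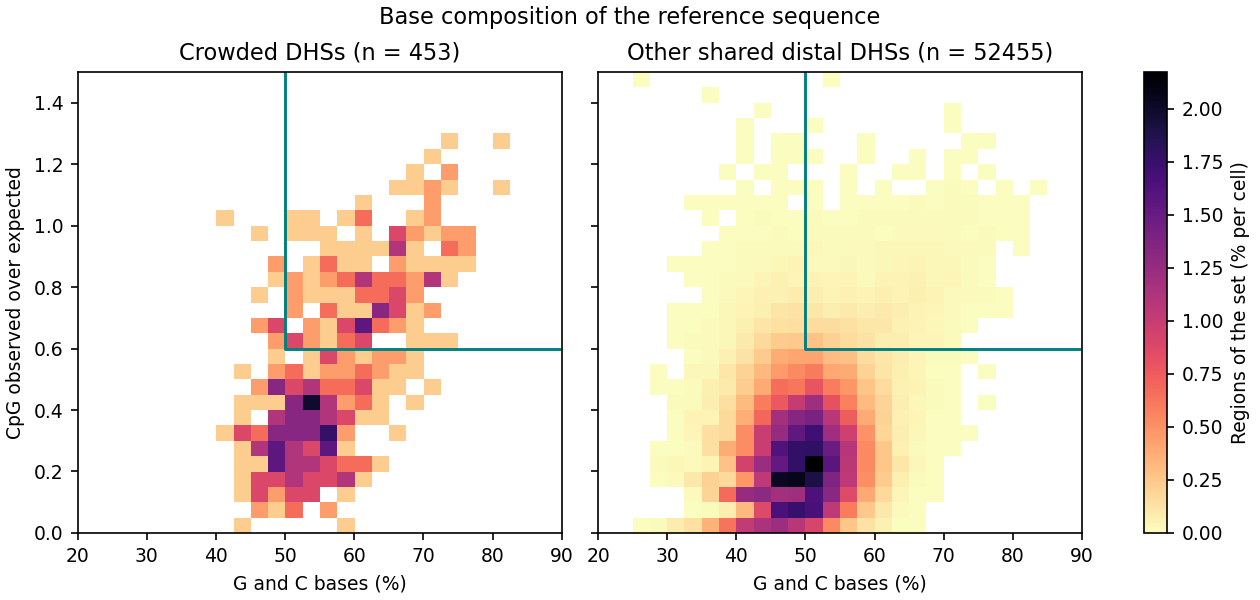
GC content (%) against the observed over expected CpG ratio of shared distal DHSs, crowded DHSs on the left and other DHSs on the right, with teal lines at 50% and 0.6. The upper right corner holds 36.9% of the crowded DHSs and 4.13% of the others.

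CpG-rich and CpG-poor crowded DHSs differed in several values. The median signal of CpG-rich ones was 2.54 (replicate 1) and 2.06 (replicate 2), and that of CpG-poor ones was 1.21 and 1.63. Median widths were 380 bp in CpG-rich and 420 bp in CpG-poor ones. Their footprints were shared between libraries at 73.9% in replicate 1 and 64.7% in replicate 2, against 64.6% and 53.1% in CpG-poor ones. CpG-rich crowded DHSs lay in exons at 20.4%, against 5.94%, and their median distance from the nearest TSS was 4476 bp, against 11490 bp. The other DHSs were split much the same way, with 20.36% of CpG-rich and 5.06% of CpG-poor ones in exons and median distances of 5879 and 13307 bp.

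Crowded DHSs lay nearer to starts of genes than the others, although all were over 1 kb away by the rule. Their median distance from a TSS was 8261 bp, against 12915 bp in the others. Within 2 kb of a TSS lay 19.2% of them, against 8.86%, and more than 50 kb away lay 7.73%, against 14.6%. Within the CpG-rich class the order depended on the comparison. Of CpG-rich crowded DHSs of any width, 28.1% lay within 2 kb, at a median distance of 4476 bp. The other CpG-rich DHSs had 24.3% and 5879 bp, and those of them that were equally wide had 36.4% and 3042 bp. Introns held 40.6%, exons 11.3% and intergenic DNA 48.1%, against 48.3%, 5.69% and 46.0% of the others. A start in RefSeq, an annotation the rule did not use, lay within 1 kb of 83 crowded DHSs (18.3%), against 4.33% of the others. The nearest such start was of an mRNA in 30, a long noncoding RNA in 34, a tRNA in 17 and another transcript in 2. Crowded DHSs were scattered: the median distance to the next was 1179 kb, and 43 had another within 50 kb. The share of crowded DHSs among shared distal DHSs ran from 0.489% on chromosome 16 to 1.24% on the X (14 of 1127), leaving aside the Y, with 0 of 7.

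Genes of tRNAs recurred under the crowded DHSs, a comparison chosen after the values had been seen. RefSeq lists 403 tRNA genes, and 164 of them lay under shared distal DHSs, 19 under crowded ones. Of the 161 shared distal DHSs over a tRNA gene, 17 were crowded (10.6%, 95% Wilson interval 6.70 to 16.3), against 436 of 52747 without one (0.827%). Among DHSs of at least 320 bp, 11 of 26 with a tRNA gene were crowded (42.3%), against 4.55% without. Signal and composition were not held. Over tRNA genes, shared distal DHSs had median signals of 2.13 (replicate 1) and 1.45 (replicate 2) and a median CpG ratio of 0.791. Those without a tRNA gene had 0.655, 0.737 and a ratio of 0.255. The part of signal and composition in the higher share was not tested. The 17 held 1 tRNA gene in 15 cases and 2 in 2 cases, of 11 amino acids, and 15 were CpG-rich. They included 3 on chromosome 1 within 50 kb of a TSS of Fcgr3, 2 near Olfr1423 and 1 near Dhx37.

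Footprints lay in a pair of stretches along the tRNA genes. In the 19 tRNA genes under crowded DHSs, 81.1% of bases 30 to 21 bp upstream of the start lay in footprints of replicate 1 and 72.6% in footprints of replicate 2. From 50 to 59 bp, the shares were 79.5% and 94.2%, and from 80 to 89 bp, past the end of a gene of 72 bp, 7.69% and 5.77%. Between the covered stretches, 9.47% of bases in replicate 1 and 8.95% in replicate 2 lay in footprints from 10 to 19 bp inside the gene, where the A box lies in most tRNA genes, and 1.58% and 0 from 20 to 29 bp. The 145 other tRNA genes showed the same 2 covered stretches at lower levels, 64.6% and 60.6% upstream and 68.2% and 74.6% from 50 to 59 bp. The difference in level follows in part from the rule, which asks for 6 footprints in each library, so nothing is read from it. The upstream stretch is where TFIIIB is known to sit, and the stretch from 50 to 59 bp is where the B box lies in most tRNA genes. Shared distal DHSs with a tRNA gene also held repeated sequence: a median of 19.7% of their 31-base words occurred elsewhere in the genome. The part of read placement in the covered stretches was not tested.

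**Figure D4:**
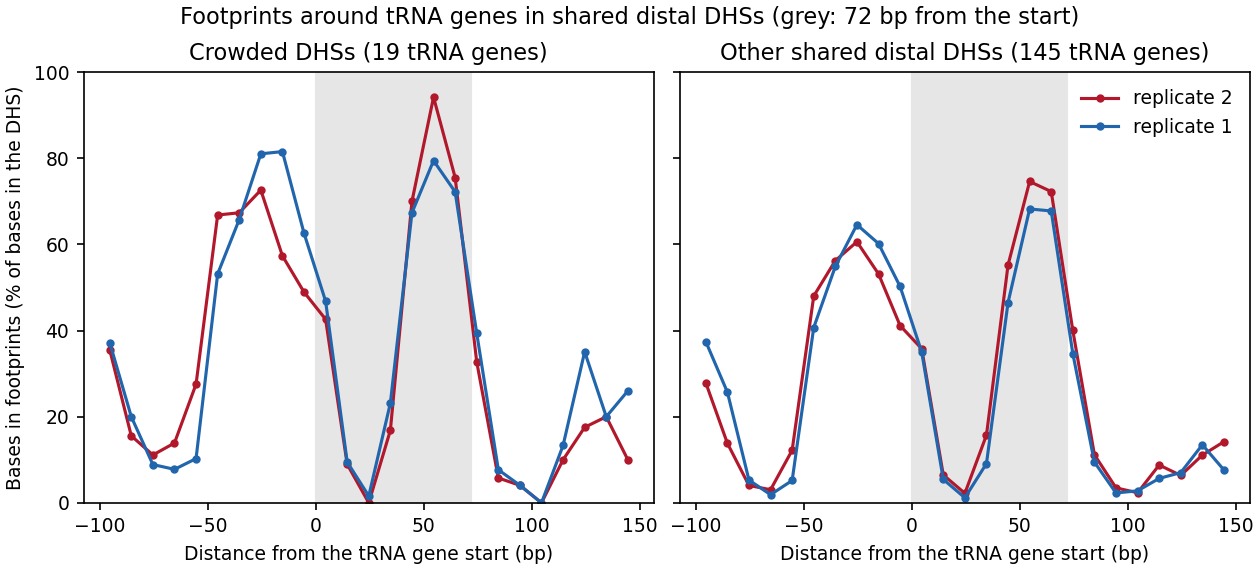
Share of bases in footprints (%) by distance in bp from the start of tRNA genes, in steps of 10 bp, for the 19 genes under crowded DHSs (left) and 145 under other shared distal DHSs (right), replicate 2 in red and replicate 1 in blue; the grey band spans 72 bp. Both panels show a covered stretch upstream of the start, a gap from 10 to 29 bp and a covered stretch from 40 to 69 bp.

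The letters GTTCGANNC, a B box core searched on both strands, occurred in 16 of the 17 crowded DHSs with a tRNA gene (94.1%), against 68.1% of the other 144 with one. They occurred in 0.917% of the crowded DHSs without a tRNA gene and in 0.296% of the other DHSs without one. Of the 20 matches in crowded DHSs with a tRNA gene, 9 (45.0%) lay wholly inside footprints of both libraries, against 51.5% in the other DHSs with one. In the printed tRNA-Asp gene these letters read GTTCGATTC.

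Crowded DHSs with a tRNA gene had the higher signal in replicate 1. Their median signal was 2.75 (replicate 1) and 1.86 (replicate 2), and the other crowded DHSs had 1.39 and 1.73. After centring on the median ratio of all shared distal DHSs, all 17 were higher in replicate 1, against 168 of the other 436 (38.5%). The same held for 154 of all 161 shared distal DHSs over a tRNA gene (95.7%), so it was not particular to the crowded ones. CpG-rich crowded DHSs, which 15 of the 17 were, also leaned to replicate 1. Their median log2 ratio of replicate 2 over replicate 1, not centred, was -0.142, against 0.352 in CpG-poor crowded DHSs. The part of composition in the difference was not tested. The tRNA-Thr DHS near Mrtfb had 6.74 in replicate 1 and 4.02 in replicate 2, and the tRNA-His DHS in an intron of BC107364 had 0.948 and 0.453. A median of 19.7% of the 31-base words in shared distal DHSs with a tRNA gene occurred elsewhere in the genome, against 0 in those without, and how the authors placed such reads is not stated.

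The Peg3 DHS is the fifth by footprints (chr7:6728281-6728960), with 13 in replicate 1 and 12 in replicate 2 at 12 shared places, and signals of 2.97 and 4.20. It was CpG-poor, with a CpG ratio of 0.363. It held 4 matches to AAGATGGCG, the core of the YY1 site (both strands), of the 10 in all crowded DHSs. YY1 is a zinc finger factor that binds tandem sites in the Peg3 domain. In the printed window 2 of these matches start at bases 134 and 275, and the last 3 and 4 bases of them lay in footprints of both libraries. None of the 4 lay wholly inside. The crowded DHS over exons of Xist and its antisense partner Tsix (chrX:103481621-103482353) held 2 more, with 9 footprints in replicate 1 and 11 in replicate 2, and signals of 1.14 and 1.94. Xist silences 1 X chromosome in female cells. Its DHS lay 1268 bp from a start of Xist. The matches to AAGATGGCG were 3.07 times as dense in crowded DHSs as in the others, and 6 of the 10 came from the Peg3 and Xist DHSs.

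A list of 35 imprinted genes was drawn up after the Peg3 DHS had been seen. Of its 122 shared distal DHSs within 50 kb, 3 were crowded (2.46%). The share was 1.01% within 50 kb of all protein-coding genes and 0.856% over all shared distal DHSs. The first of the 3 is the Peg3 DHS, which prompted the list. The second lay in an intron of Peg10 (chr6:4749101-4749460), a retrotransposon-derived gene expressed from the paternal allele, with 7 and 9 footprints and signals of 2.60 in replicate 1 and 3.28 in replicate 2. The third lay near Trappc9 (chr15:73067421-73067840), with 9 and 8 footprints and signals of 7.18 and 8.01. The data do not separate the parental alleles.

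The letters of some motifs were denser and those of others sparser in crowded DHSs. The GC box GGGCGGG (both strands), bound by SP and KLF factors, had 221 matches in 127 crowded DHSs, or 1.08 per kb, against 0.209 per kb in the others, a ratio of 5.18. It occurred in 28.04% of crowded DHSs, against 4.38% of the others. The ratio was 1.68 within CpG-rich DHSs and 3.23 within CpG-poor ones. NRF1, by its name, was 6.62 times as dense (7 matches), EGR as GCGTGGGCG 4.53 times (9 matches) and the CRE TGACGTCA, bound by CREB and ATF factors, 3.84 times (17 matches). ETS letters CCGGAAG were 2.26 times, PU.1 letters GAGGAAGTG 1.79 times, the CLOCK E-box CACGTG 1.62 times, T-box letters AGGTGTGA 1.31 times and POU letters ATGCAAAT 1.25 times as dense. EGR had a ratio of 5.56 in CpG-poor and 0.784 in CpG-rich DHSs, PU.1 2.43 and 0.677, and T-box 1.89 and 0.372. Within CpG-rich and CpG-poor DHSs, in this order, ratios were 2.23 and 2.08 for NRF1 and 2.42 and 1.62 for the CRE. The same ratios were 1.25 and 1.23 for ETS, 1.18 and 1.21 for CLOCK, and 1.86 and 1.37 for POU.

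The AP-1 letters TGANTCA had 0.323 matches per kb in crowded DHSs, against 0.560 in the others, a ratio of 0.577. Ratios were 0.565 for SOX (AACAATG), 0.632 for FOX (TGTTTAC), 0.642 for RBPJ (GTGGGAA), 0.649 for MEF2, 0.654 for homeobox (TAATTA), 0.753 for RFX (GTTGCCATG) and 0.755 for the NEUROD E-box (CAGATG). Against the equally wide DHSs the RFX ratio turned, to 1.13. The NEUROD ratio was 0.766 within CpG-rich and 0.943 within CpG-poor DHSs. The NEUROD E-box was found in 35.3% of crowded DHSs, against 28.3% of the others, since crowded DHSs are longer. Full NFI and REST motifs, by name, had 0 matches in crowded DHSs. They were too rare in the others, at 0.00682 and 0.000314 per kb, for a difference to be detectable. CTCF was 0.420 times as dense as in all other DHSs, at 0.161 per kb against 0.385, but 4.39 times as dense as in the equally wide DHSs. Of its 33 matches, 11 lay in 2 crowded DHSs, near Sec22c and Gapt, where 43.6% and 54.1% of 31-base words occurred elsewhere in the genome. Without these 2 the density was 0.108 per kb. A match is a description of the letters, and no factor was measured.

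Of CTCF matches in crowded DHSs, 57.6% (95% Wilson interval 40.8 to 72.8) lay wholly inside footprints of both libraries, against 71.6% in the other DHSs and 35.0% in the equally wide ones. NRF1 followed at 57.1% (4 of 7), against 42.4%. The CRE had 52.9% (9 of 17), against 22.1%, EGR 44.4% (4 of 9), against 29.03%, and RFX, whose factors regulate cilium genes among others, 28.6% (4 of 14), against 30.3%. The GC box GGGCGGG had 28.1% (62 of 221), against 13.2%. Any 7-base window of crowded DHSs lay inside footprints of both libraries at 5.63%, against 3.92% in the others. No match lay inside for MEF2, SOX, YY1, POU, T-box, homeobox, FOX and PU.1, with 10 to 29 matches each. Of YY1 matches 0 of 10 did (upper 95% Wilson limit 27.8%), against 38.9% of 203 in the others. The Wilson limits take matches as independent, but 6 of the 10 YY1 matches lay in 2 DHSs, as did 11 of the 33 CTCF matches. Both intervals may therefore be too narrow, and no difference is read from them. MEF2, SOX, homeobox and FOX matches were at or below 1.36% in the others too.

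**Figure D5:**
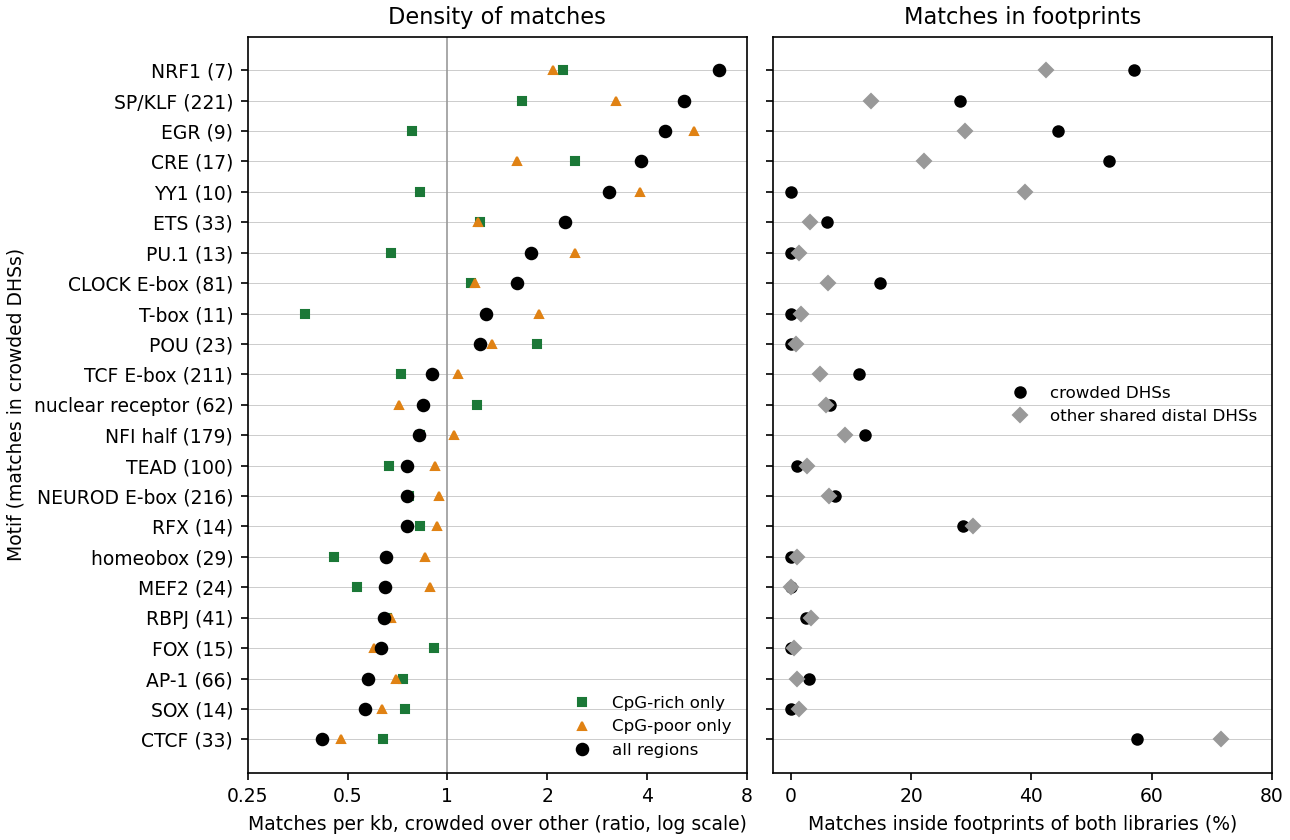
Left, matches per kb in crowded DHSs over those in the other shared distal DHSs for each motif, for all DHSs and for CpG-rich and CpG-poor ones; right, the share of matches (%) wholly inside footprints of both libraries, in crowded DHSs and in the other DHSs. GC-box, NRF1, EGR and CRE letters stand to the right of 1 over all DHSs, and NFI and REST, with 0 matches in crowded DHSs, are left out.

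The 6-base words most often inside footprints of both libraries were all rich in G and C. Of 748 words with 100 or more occurrences in crowded DHSs, CGCCCC led with 33.5% of 322 occurrences inside. GCGCCA had 32.4%, GCCCCC 31.3%, CCGCCC 29.3%, CCCCCC 27.8%, AGGGGG 27.7%, CGGGGC 27.0%, GGCGCC 25.8%, CCCCGC 24.9% and GGCGCA 24.8%. Over all 748 the share was 7.42%. Words with a CpG stood at 15.9% and words without at 5.84%. The share was 0.916% for words with 1 G or C, 3.87% for those with 3 and 20.8% for those with 6. DNase I's own preference among base contexts moves with such words, and its part in the result was not tested.

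The crowded DHSs of highest signal held 6 to 9 footprints in either library. The highest (chr15:99735641-99736080) had its midpoint in an exon of the ceramide synthase gene Cers5, with signals of 26.9 in replicate 1 and 28.6 in replicate 2 and 7 footprints in each. The next lay over an exon of Lars2, the mitochondrial leucyl-tRNA synthetase gene (chr9:123461901-123462140), with 28.3 and 17.9, and 55.7% of its 31-base words occurred elsewhere in the genome. DHSs near Irf2bp2, Tle3, a Groucho family corepressor gene, C87436 and Ptma, the prothymosin alpha gene, followed, with 7.34 to 11.0 in either library. These 6 had 5 to 9 shared places and were 240 to 440 bp wide. The 6 lowest had their nearest protein-coding TSS at Hmcn1, Cpne3, Tmeff2, Gsc, Cbln1 and Tbx4. These TSSs lay 97979, 102027, 1840, 84671, 39428 and 98696 bp away. The Hmcn1 DHS had signals of 0.424 and 0.304, with 6 footprints in each library and 2 shared places. The 6 lowest had 1 to 4 shared places.

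Signals of the animals were within 2-fold of each other at most crowded DHSs. After centring, 13 of 453 were over 2-fold apart (2.87%), beside 6.2% of all shared distal DHSs. The SD of the log2 ratio was 0.484, against 0.547 over all shared distal DHSs. The 9 that were higher in replicate 2 were all CpG-poor, as were 1974 of 1984 such DHSs among the others. The widest ratio was at the Bcar3 intron (chr3:122506441-122506761), with 2.52 in replicate 2 and 0.678 in replicate 1, a 3.65-fold ratio after centring. The folds that follow are centred too. DHSs near Tead1, a Hippo pathway factor gene, Ajap1, Irf4 and Zfp366 followed at 2.81, 2.39, 2.33 and 2.31-fold higher in replicate 2. In the other direction, the DHS near Gapt was 2.20-fold higher in replicate 1, followed by those near Rnf219 (2.14), BC107364 (2.13, the tRNA-His DHS), Foxn3 (2.10) and Tcf12 (1.94). The Gapt, Rnf219 and Foxn3 DHSs had 54.1%, 62.4% and 36.7% of their 31-base words elsewhere in the genome, and the part of read placement was not tested. Each animal gave 1 library, so a single ratio has no error.

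Lists of genes that define cortical cell types held 0 or 1 gene with a crowded DHS each. Over all genes, 767 of 21951 protein-coding genes (3.49%) had a crowded DHS within 50 kb of a TSS. None of 12 pan-neuronal, 16 interneuron, 12 microglia, 10 endothelial and mural, 12 liver and 12 blood genes did. Lists of this size would hold few at the overall share. In the glutamatergic neuron list 1 of 16 genes had one, and in the astrocyte and oligodendrocyte lists 1 of 13 each. The first was Slc17a7, the vesicular glutamate transporter gene (chr7:45161961-45162480). It lay 1728 bp from its TSS, with 8 and 9 footprints and signals of 3.37 in replicate 1 and 3.19 in replicate 2. The same DHS lay within 50 kb of the ribosomal protein gene Rpl13a of the housekeeping list.

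Among 18 genes of synaptic receptors and scaffolds, 3 had a crowded DHS, and these were 3.26% of the list's 92 distal DHSs, against 1.01% over all protein-coding genes. One lay in an intron of Dlg4, which encodes the scaffold PSD-95 (chr11:70021401-70021720), with 7 and 8 footprints and signals of 4.97 in replicate 1 and 5.62 in replicate 2. Another lay in an intron of Shank2 (chr7:144207881-144208240), with 6 and 7 footprints and signals of 1.13 and 1.86, and the third is the Clec11a DHS near Shank1. The synaptic share was not the highest: the housekeeping list had 3.57%, from 2 crowded DHSs near 2 of its 12 genes. Of the lists for other tissues, hindbrain patterning had 3.57% and muscle 2.08%, from 1 crowded DHS each, and liver and blood had 0. Among 18 activity-regulated genes, 2 had one. The DHS 18509 bp from Fos, the immediate early gene (chr12:85455141-85455620), had 11 and 9 footprints at 9 shared places and signals of 5.30 and 6.78. The DHS 1692 bp from the orphan nuclear receptor gene Nr4a3 (chr4:48043321-48043600) had 6 and 7 footprints and signals of 4.23 and 4.57.

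Single crowded DHSs lay near 1 gene each of 5 more lists. In the oligodendrocyte list, the DHS 5453 bp from the myelin gene Mog (chr17:37028641-37029060) had 6 and 8 footprints and signals of 4.82 in replicate 1 and 4.40 in replicate 2. In the astrocyte list, the DHS 33357 bp from Id4, an inhibitor of bHLH factors (chr13:48227741-48228000), had 8 and 7 footprints and signals of 4.34 and 3.89. It lay 87 bp from a RefSeq start. The others lay near Ephb2 of the neurite list (11 and 11 footprints), Gbx2 of the hindbrain list (6 and 7) and Acta1 of the muscle list (6 and 6). The DHS near Ephb2 had its midpoint in an exon of Lactbl1, and the one near Gbx2 in an exon of Asb18.

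Cfap126, Fcgr3, Sdhc, Klrb1c and Ptma were among the genes with the most crowded DHSs within 50 kb, with 3 each. The first 3 are neighbours on chromosome 1 and share a pair of crowded DHSs over tRNA genes (chr1:171102101-171102460 and chr1:171102701-171103140). The Ptma DHSs held 10 and 12 footprints (chr1:86528021-86528500), 8 and 9 (chr1:86487401-86487780), and 7 and 7 (chr1:86504001-86504440). Their signals were 4.12 in replicate 1 and 3.14 in replicate 2 for the first, 9.42 and 7.34 for the second, and 2.87 and 2.82 for the third. The 3 near Klrb1c, a natural killer cell receptor gene, had signals of 2.71 to 5.12 in replicate 1 and 1.86 to 7.69 in replicate 2. Arid5b, Aurkb, B430305J03Rik, Borcs6, Bri3bp and Calcoco1 are the first in the alphabet of the many genes with 2.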

How the data were processed

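DNase-seq peaks and footprints were analysed from 2 libraries of 1 group, on mm10. The authors called peaks and footprints per library, without pooling, according to the notes they deposited. The sources used here do not name the aligner or the callers. The deposited signal of each peak has no stated unit, so depth is unknown. The deposited FDR (q-value) segments give the false discovery rate of the local cut rate, up to 0.05, and the authors' footprints carry the constant 0.01 as p-value, so they could not be ranked. Of the 2 peak lists deposited per library, the larger was used.

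Peaks were merged, and a DHS took the highest peak signal of each library. TSSs came from GENCODE M21, and RefSeq starts, tRNA genes and sequence from GRCm38.p6. Letters of 25 motifs were searched on both strands; a match inside a footprint had all its bases in 1. The share of 31-base words found elsewhere in the genome marked repeated sequence.

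The crowded DHSs and the 15 gene lists (206 entries) were chosen with earlier results of these data known. Named were the 12 crowded DHSs with the most footprints, the 6 highest and the 6 lowest by signal, the 5 with the largest ratio in each direction, the 12 genes with the most crowded DHSs, up to 3 genes per list, the 6 motifs highest in footprints and all those tied lowest, and the 10 highest 6-base words. The comparisons of tRNA genes, imprinted genes, Xist, CpG classes, the Sec22c DHS and RefSeq starts were added after values had been seen. Motif windows for CRE, EGR and RFX are not printed, and some items that the rule named are not reported here. Functions were tested on simulated data, with all planted cases recovered. Software was pysam 0.24.0, samtools 1.23.1, pandas 2.3.3, NumPy 2.4.6, Numba 0.67.0, SciPy 1.17.1 and Matplotlib 3.10.9 under Python 3.11.15. Wilson intervals cover counting error only. Alternatives covered the footprint minimum, peak list, overlap, distances, each library alone, and the sets named above.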

Additional observations from a re-analysis of the deposited data

How the results depend on the processing

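Of 124 values recomputed under alternatives, 78 stayed within the limits set for each (1.5 times a count, or the SD or interval of a value), and 46 moved; the causes were not tested. The GC difference, which has a direction, stayed above 0 in each alternative. The values below are to be read beside 453 crowded DHSs, 1.77 footprints per 100 bp, 62.98% shared footprints, a spacing of 45 bp, a GC content 6.06 points above the other DHSs, 13.02% of motif matches inside footprints of both libraries, the 10 leading words, 48.1% intergenic, 3.49% of coding genes within 50 kb, 2.87% over 2-fold apart and an FDR run of 717 bp.

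With a minimum of 5 footprints there were 1352 crowded DHSs, with a GC difference of 4.13 points, 9.64% of genes, 4.88% over 2-fold, runs of 568.2 bp and 6 of the 10 words. With a minimum of 8 there were 82, with 11.1 points, 0.784% of genes, runs of 951.5 bp, a spacing of 46.5 bp, 40.2% intergenic and 3 words. Leaving out 1 replicate gave 763 to 3651 crowded DHSs, 2.14 to 2.31 footprints per 100 bp, spacings of 35 to 38 bp, GC differences of 2.68 to 3.23 points, 19.5% to 23.5% of matches inside, 6 to 7 words, 43.3% to 47.97% intergenic and 5.46% to 18.99% of genes. The stricter list gave a spacing of 43.25 bp, 15.5% inside and 3.14% of genes. Limiting DHSs to 400 bp gave 360, with 2.03 per 100 bp, 41.25 bp, 18.01% inside and 2.87% of genes. Genes came to 3.20% with footprints wholly inside the DHS, 2.56% over 2 kb from a TSS, 2.76% away from RefSeq starts, 1.67% within 20 kb and 6.21% within 100 kb. Overlap of 50% gave 39.7% shared footprints and 22.5% of matches inside. Within CpG-rich DHSs the density was 1.92 per 100 bp, the GC difference 4.53 points and the share inside 19.48%, and within CpG-poor ones the GC difference was 3.71 points and the share inside 9.56%.

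A library alone gave no sharing and no ratio. Runs of segments were recomputed where the DHSs were unchanged. No paired analysis was possible because there was 1 group. Depth is unknown, so what it limits cannot be given.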

Other observations

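Of the shared distal DHSs, 1286 had no footprint in either library. On the Y chromosome, 0 of 7 shared distal DHSs were crowded, in libraries labelled female.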
